A study of Mus musculus with 56 samples.

Results

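Hepatic stellate cells were followed in whole liver through 10 genes that mark them, Pdgfrb, Reln, Hgf, Lrat, Des, Dcn, Colec11, Ecm1, Rgs5 and Ngfr. The genes were taken by symbol from the gene table, whose Ensembl identifiers were matched to mouse symbols by the GENCODE annotation, and all 10 were found among the 25287 genes tested. The livers came from female C57BL/6J mice, 9 weeks old, kept under 12 h of light and 12 h of darkness, that for 7 days had received chow only in the daytime (daytime-restricted feeding, DRF) or only at night (nighttime-restricted feeding, NRF, the reference). Livers were collected every 4 h from ZT0 (lights on) to ZT24, with 4 animals at each of 7 times per regimen, which gave 14 groups and 56 RNA-seq libraries, 28 per regimen. The extraction protocol describes ribosome-depleted, strand-specific libraries, whereas the molecule field of the samples reads polyA RNA. The protocol is followed here. Each library came from 1 liver, and no cells were sorted. In such bulk RNA, fewer stellate cells and less RNA per stellate cell cannot be told apart.

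Stellate cells lie between the hepatocytes and the sinusoidal endothelium, store most of the body's retinoids as retinyl esters, and turn into collagen-producing myofibroblasts when the liver is injured. They receive PDGF and neurotrophin signals, secrete hepatocyte growth factor and reelin, and make part of the pericellular matrix. The liver clock is entrained by the time of food, so that inverting the feeding time moves many hepatocyte rhythms by about the same amount. Several of the 10 genes are not made by stellate cells alone, since portal fibroblasts express Dcn, sinusoidal endothelial cells express Hgf, smooth muscle expresses Des, and pericytes of other vessels express Rgs5.

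Values are given as scaled counts, the whole counts recovered from the deposited table times 1 factor per library, and 1 scaled count stood for 304 to 723 recovered counts. The recovered counts, leaving out the genes too deep to be resolved, came to between 169280678 and 390921204 per library. These totals are several times the number of reads that the study states per library, so a recovered count is not a single read and the sequencing depth behind a value is not known from it. Of the 10 genes, 9 gave whole counts within 0.05 in all 56 libraries and Reln in 51 of 56 (in all 56 within 0.2), from 504 counts for Des in its lowest library to 420946 for Reln in its highest. Libraries differed in how their values depended on transcript length: the rank correlation, across genes, of a library's deviation with gene length ran from -0.32 to 0.30. Its group means were negative at ZT0, ZT4 and ZT8 and positive from ZT12 to ZT24 in both regimens. They were lowest at ZT4 and ZT8 under DRF, at -0.22 and -0.23, and highest at ZT24, at 0.17 under DRF and 0.18 under NRF. At ZT0, the same clock time as ZT24, they were -0.12 under DRF and -0.18 under NRF. This rank correlation thus varied with the time of day, as do the rhythms tested below. It is given below beside the genes whose call moved when it was fitted.

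Per kilobase of exon, the 10 levels spanned from Colec11 (a soluble lectin of the complement system) at 48.0 ± 7.71 scaled counts per kb to Des (the intermediate filament desmin) at 0.578 ± 0.0910 (mean ± SD over 56 libraries). Dcn followed at 26.8 ± 2.25, Reln at 20.8 ± 2.36, Ecm1 at 15.3 ± 2.66, Rgs5 at 15.2 ± 2.11, Hgf at 5.42 ± 1.003, Pdgfrb at 3.58 ± 0.640, Lrat at 2.97 ± 0.608 and Ngfr at 1.81 ± 0.632. Each gene was above the next in this order in at least 42 of 56 libraries, other than Ecm1, which was above Rgs5 in only 26 of 56, so that these neighbours could not be ordered. Colec11, Rgs5 and Ngfr stood above their next neighbour in every library. The length used was that of all annotated exons of a gene merged, which can exceed that of its mRNA. For Dcn it was 5838 bases, where the coding transcripts Dcn-201 and Dcn-202 have 1758. For Reln it was 23738 bases, where the coding transcript Reln-201 has 10885. The order therefore holds for these lengths only, and another choice of length can change it.

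The genes lie on 7 chromosomes of GRCm38 and are protein-coding. Ngfr (ENSMUSG00000000120) spans chromosome 11, 95568818 to 95587735, on the minus strand. Hgf (ENSMUSG00000028864) spans chromosome 5, 16553495 to 16620152, on the plus strand, and 6.74% of its exonic length overlaps Gm43489 on the same strand. Reln (ENSMUSG00000042453) spans chromosome 5, 21884454 to 22344702, on the minus strand, and has the longest exonic length of the 10, 23738 bases. Des shares 5.86% of its exonic length with Gm15179 on the opposite strand, and how reads in these overlaps were counted is not given in the sources used here.

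The start-site sequences of 3 genes are shown because these genes followed unlike courses over the day: Ngfr had the strongest rhythm, Hgf the rhythm that moved furthest between regimens, and Reln a weak one. Each is the 250 bases before the RefSeq start on GRCm38.p6, 5′ to 3′ on the strand of the gene, namely 11:95587699-95587948 (minus strand) for Ngfr, 5:16553245-16553494 (plus strand) for Hgf and 5:22344706-22344955 (minus strand) for Reln. Capitals mark matches, on either strand, to an E-box (CACGTG), which CLOCK and BMAL1 bind, a D-box (TTATGNAA), a ROR element core (AGGTCA) or a GC box (GGGCGG).
Ngfr: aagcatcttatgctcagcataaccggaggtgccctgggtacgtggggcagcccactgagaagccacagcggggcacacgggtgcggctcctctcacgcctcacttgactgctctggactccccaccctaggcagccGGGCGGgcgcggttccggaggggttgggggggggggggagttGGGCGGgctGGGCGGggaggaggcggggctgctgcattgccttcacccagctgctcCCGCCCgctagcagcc
Hgf: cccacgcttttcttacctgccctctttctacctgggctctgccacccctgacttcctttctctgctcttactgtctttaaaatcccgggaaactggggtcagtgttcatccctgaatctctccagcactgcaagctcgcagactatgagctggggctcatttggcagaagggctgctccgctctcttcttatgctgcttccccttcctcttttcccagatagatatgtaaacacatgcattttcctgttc
Reln: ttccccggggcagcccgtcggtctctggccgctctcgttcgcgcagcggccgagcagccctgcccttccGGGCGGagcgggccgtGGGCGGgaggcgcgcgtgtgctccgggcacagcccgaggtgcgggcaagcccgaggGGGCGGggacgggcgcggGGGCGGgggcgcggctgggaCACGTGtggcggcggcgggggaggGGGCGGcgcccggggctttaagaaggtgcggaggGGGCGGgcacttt

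Ngfr held 4 GC boxes and none of the clock elements searched, in a window of 70.4% G and C. Reln held 6 GC boxes and 1 E-box, 71 to 66 bases before its start, in a window of 80% G and C. The Hgf window held no match and had 50.8% G and C, against a median of 52.4% over all promoters. The search covered 8 members and left out Pdgfrb and Dcn. Of these 8, Reln alone had an E-box, which 6.02% of all 32851 promoters of this length hold. None of the 8 had a D-box (3.07% of promoters) or the ROR element core (14%). GC boxes, held by 32.7% of promoters, were also found before Lrat, Des and Ecm1. These matches describe letters and no binding was measured.

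A 24-h cosine was fitted to each regimen on the log2(scaled count + 1) scale, a scale that understates the fold change of genes at a few scaled counts, and tested with limma, with Benjamini-Hochberg adjustment over all 25287 genes and a threshold of 0.05. Under DRF 4 of the 10 genes were rhythmic (Reln, Hgf, Dcn and Ngfr), against 35.1% of all genes tested. Under NRF 5 were rhythmic (Pdgfrb, Hgf, Lrat, Des and Ngfr), against 43.8% of all genes. Hgf and Ngfr were dual-oscillating, that is rhythmic under both regimens, as were 23.3% of all genes. The rhythm itself differed between regimens in 3 (Pdgfrb, Hgf and Ngfr), against 38.9% of all genes. A rhythm component shared by both regimens, which a shift by exactly 12 h would leave at 0, was called in 5 (Pdgfrb, Reln, Lrat, Des and Ngfr), against 34.4%, and both the difference and the shared component were called in Pdgfrb and Ngfr, against 18.8%. Of the 11276 genes whose mean level lay in the range of the members, 6041 were rhythmic under DRF, 6748 under NRF, 6482 differed in rhythm and 5488 had a shared component, all larger shares than over all genes, and larger than over the members except for the shared component. The shared component is the mean of both fitted cosines and the opposed component is their difference divided by 2, so the full distance between the rhythms is 2 times the opposed component. The size of a difference in rhythm is given below as the opposed component. The median amplitude, the distance from the fitted mean to the fitted peak, was 0.14 under DRF and 0.13 under NRF over the 10 genes, against 0.09 and 0.10 over all genes and 0.17 and 0.19 over the 11276 genes in the members' range of levels.

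Ngfr, the p75 neurotrophin receptor, had the largest rhythm of the 10. Under NRF its group mean rose to 10.2 scaled counts at ZT4 and fell to 2.73 at ZT16, a 3.75-fold range, whereas under DRF it ranged only from 4.43 at ZT12 to 6.85 at ZT0, or 1.55-fold. The fitted amplitude was 0.78 ± 0.062 under NRF (SE, peak at 3.21 ± 0.301 h, limma adjusted p = 3.71e-14) and 0.24 ± 0.058 under DRF (peak at 23.6 ± 1.04 h, adjusted p = 0.00321). The amplitude under DRF was 0.308 of that under NRF, a difference of -0.54 (95% interval -0.71 to -0.37). The peak differed by 3.64 ± 1.09 h, and the opposed component of the rhythms was 0.34 (adjusted p of the difference = 1.10e-07). The shared component was 0.47, with a peak at 2.41 h (adjusted p = 3.76e-11). Its group means were lowest at ZT12 under DRF and at ZT16 under NRF.

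At ZT4 the 4 DRF livers had 7.01, 5.27, 5.39 and 5.99 scaled counts of Ngfr. The 4 NRF livers at ZT4 had 7.51, 11.0, 11.0 and 11.4. All DRF values lay below all NRF values, though the first NRF liver was close to the highest DRF liver, and the difference was -0.69 ± 0.16 (SE, limma adjusted p = 0.00114). At ZT16 the order was turned. The DRF livers had 4.17, 5.28, 5.53 and 5.56 scaled counts, and the NRF livers 2.43, 2.25, 3.19 and 3.06. Every DRF liver was above every NRF liver, at a ratio of means of 1.88 and a difference of 0.72 ± 0.16 (adjusted p = 0.00119). At ZT8 the DRF livers had 6.57, 7.00, 2.38 and 6.62 scaled counts and the NRF livers 8.15, 8.26, 6.36 and 8.09. The third DRF liver stood far below the others, the groups overlapped, and the difference of -0.47 ± 0.16 (adjusted p = 0.0457) fell to -0.17 (adjusted p = 0.524) without that liver. The ZT8 call was also lost without replicate 1, 2 or 4 of NRF, where the difference was -0.44, -0.43 and -0.44 (adjusted p = 0.107 each). At ZT0 the groups did not overlap either, with means of 6.85 ± 0.737 under DRF and 8.92 ± 0.779 under NRF. The ZT0 difference of -0.34 ± 0.16 was not called (limma adjusted p = 0.164).

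Pdgfrb (ENSMUSG00000024620, on chromosome 18), the receptor through which PDGF drives stellate cell growth, ran close to Ngfr under NRF and swung less under DRF. Its amplitude was 0.35 ± 0.046 under NRF (peak at 2.14 ± 0.528 h, limma adjusted p = 5.35e-08) and 0.14 ± 0.049 under DRF (peak at 19.6 ± 1.21 h), where the rhythm missed the threshold (adjusted p = 0.0559). The DRF rhythm passed the threshold when 1 of 13 libraries was left out and under the rank test (adjusted p = 0.0254). The rhythms differed, with an opposed component of 0.20 (adjusted p = 1.32e-05), the amplitude was lower by 0.21 under DRF (95% interval of the difference -0.34 to -0.07), and the shared component was 0.18 (adjusted p = 5.09e-05).

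At ZT0 Pdgfrb stood at 23.0, 17.0, 20.8 and 17.9 scaled counts in the DRF livers. The NRF livers at ZT0 had 23.4, 27.0, 21.4 and 28.3. The ranges overlapped through the first DRF and the third NRF liver, and the difference of -0.33 ± 0.11 passed the threshold (limma adjusted p = 0.0337). It missed it without replicate 2 or 4 of DRF at ZT0 (adjusted p = 0.139 and 0.107) and without replicate 2 or 4 of NRF at ZT0 (adjusted p = 0.106 and 0.131). At ZT12 the DRF livers had 18.0, 17.6, 21.99 and 18.9 scaled counts and the NRF livers 12.1, 15.96, 14.8 and 12.7. All DRF livers lay above all NRF livers, by 0.44 ± 0.11 (adjusted p = 0.00416) and a ratio of 1.38. At ZT16 they were again separate, with 18.8, 21.8, 18.3 and 21.96 under DRF and 12.2, 15.1, 16.5 and 14.4 under NRF, a ratio of 1.39 and a difference of 0.45 ± 0.11 (adjusted p = 0.00379). ZT0 and ZT24 fall at the same clock time, yet the NRF livers at ZT24, at 19.6, 17.4, 20.5 and 19.5, were lower than those at ZT0 by 0.35 ± 0.11 on the log2 scale (adjusted p = 0.0404), a direction and call that 5.56% of genes shared.

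Hgf, the hepatocyte growth factor that stellate cells release to the MET receptor on hepatocytes, was the member whose rhythm moved furthest. Its amplitude was 0.30 ± 0.050 under DRF with a peak at 21.3 ± 0.641 h (limma adjusted p = 1.18e-05), and 0.18 ± 0.048 under NRF with a peak at 10.6 ± 1.11 h (adjusted p = 0.00595). The peaks lay 10.7 ± 1.28 h apart, within the range of shifts that the study calls phase-inverted, though the study took its phases from another method. No shared component was called (0.07, adjusted p = 0.263). The rhythms differed, with an opposed component of 0.24 (adjusted p = 5.13e-07). The amplitude was 1.67 times as large under DRF, but the interval of the difference (-0.02 to 0.26 around 0.12) held 0.

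At ZT8 Hgf stood at 34.0, 34.8, 27.0 and 27.2 scaled counts under DRF. Under NRF it stood at 46.4, 50.7, 35.7 and 34.2. The last NRF liver fell within the DRF range and the others lay above it, and the difference was -0.42 ± 0.12 (limma adjusted p = 0.0109). At ZT20 the DRF livers had 47.1, 48.1, 36.5 and 55.97 scaled counts and the NRF livers 35.3, 28.9, 37.97 and 36.9. The third DRF liver was as low as the NRF livers, and DRF was higher by 0.41 ± 0.12 (adjusted p = 0.0120). At ZT24 the livers separated fully, with 49.4, 54.6, 45.4 and 58.8 under DRF and 38.9, 35.9, 35.4 and 31.5 under NRF, a ratio of 1.47 and a difference of 0.54 ± 0.12 (adjusted p = 7.93e-04). The ZT8 call was lost without replicate 3 or 4 of DRF (adjusted p = 0.0575 and 0.0540) or replicate 1 or 2 of NRF (adjusted p = 0.0554 and 0.0825). The ZT20 call was lost without replicate 4 of DRF (adjusted p = 0.0840) or replicate 2 of NRF (adjusted p = 0.0785).

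**Figure D1:**
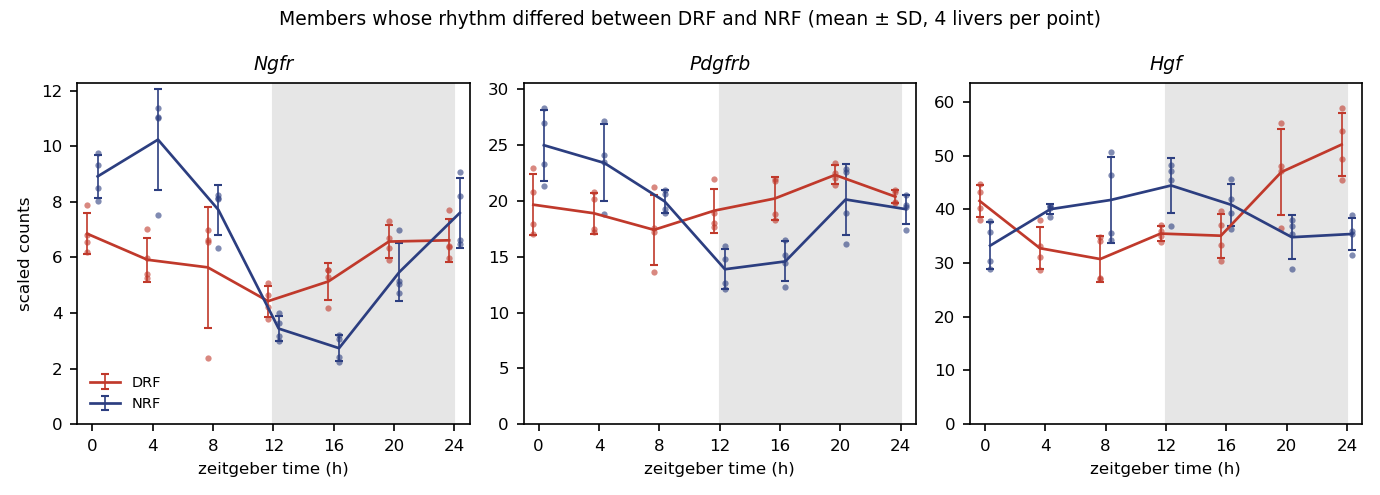
Scaled counts (vertical axes, linear, from 0) of Ngfr, Pdgfrb and Hgf against zeitgeber time in hours, for DRF and NRF. Points are single livers, lines join the group means, bars are SD over 4 livers and the grey field is the dark phase: Ngfr swings between 10.2 and 2.73 under NRF but between 6.85 and 4.43 under DRF, and the curves of Hgf run opposite to each other.

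Reln, the secreted glycoprotein reelin, was rhythmic under DRF, with an amplitude of 0.16 ± 0.041 and a peak at 17.7 ± 0.833 h (limma adjusted p = 0.00402). Under NRF the fitted amplitude was 0.09 ± 0.036 (adjusted p = 0.117), and the difference in rhythm missed the threshold (0.08, adjusted p = 0.0598). Its level ran from 388 through a median of 481 to 630.5 scaled counts over the 28 DRF livers and from 397 through 499.8 to 599 over the NRF livers. At ZT4 the DRF livers held 423, 426, 388 and 411 and the NRF livers 479, 536, 457 and 442. Every DRF liver was thus below every NRF liver at ZT4, and likewise at ZT8, but neither difference passed the test (-0.21 ± 0.09, adjusted p = 0.0906, and -0.19 ± 0.09, adjusted p = 0.173). Over the 7 times together the regimens differed (adjusted p = 0.0286). With the length dependence of the libraries fitted, the DRF amplitude of this long transcript fell to 0.07 and the call was lost (adjusted p = 0.277), as was that of the shared component (0.11, adjusted p = 0.00833, against 0.05, adjusted p = 0.259). The shared component was also lost with recovered counts divided by the library total.

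Among the matrix genes, Dcn, the collagen-binding proteoglycan decorin, was the steadiest of the 10. Its group means stayed between 147 (ZT4) and 167 (ZT24) scaled counts under DRF, a 1.14-fold range, and between 150.2 (ZT24) and 161 (ZT8) under NRF, 1.07-fold. The small DRF rhythm passed the threshold (amplitude 0.10 ± 0.031, peak at 20.95 ± 1.23 h, limma adjusted p = 0.0348), and did not when 1 of 5 DRF libraries was left out (adjusted p up to 0.0758) or when length was fitted (adjusted p = 0.107). The 5 were replicate 1 at ZT0, replicate 4 at ZT8, replicate 3 at ZT12, replicate 1 at ZT20 and replicate 4 at ZT24. This call was also lost with recovered counts divided by the library total, without all ZT0 libraries and without all ZT24 libraries. Ecm1, extracellular matrix protein 1, which keeps latent TGF-beta inactive in liver, gave amplitudes of 0.10 ± 0.065 under DRF (adjusted p = 0.433) and 0.10 ± 0.067 under NRF (adjusted p = 0.438). Ecm1 ranged from 28.3 to 45.6 scaled counts over the DRF livers, with a median of 38.8, and from 24.9 to 58.1 over the NRF livers, with a median of 37.8. The median of the coefficients of variation within groups was 11.7% under DRF and 20.9% under NRF for Ecm1, and 5.30% and 8.80% for Dcn.

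Lrat, the enzyme that esterifies retinol for storage, was rhythmic under NRF by a narrow margin, with an amplitude of 0.20 ± 0.071 and a peak at 14.4 ± 1.38 h (limma adjusted p = 0.0480). Under DRF the amplitude was 0.12 ± 0.069 with a peak at 13.3 h (adjusted p = 0.346). The component shared by the regimens passed the threshold (0.16, adjusted p = 0.0253) and the difference did not (0.05, adjusted p = 0.778). Lrat was highest at ZT16 and lowest at ZT0 in both, at 19.4 and 13.0 scaled counts under DRF and 18.8 and 12.9 under NRF. The livers ran from 11.2 to 25.3 under DRF and from 8.24 to 24.4 under NRF. The NRF call was lost when any 1 of 28 of the 56 libraries was left out, among them libraries of DRF. Without 1 of those DRF libraries the amplitude stayed at 0.20 and the limma adjusted p was at most 0.0512. The highest adjusted p was 0.135, without replicate 1 of NRF at ZT16. The shared component of Lrat was lost without that library (adjusted p = 0.0512) or without replicate 3 of DRF at ZT16 (adjusted p = 0.0538). Both calls of Lrat were also lost with recovered counts divided by the library total and without all ZT0 libraries. The NRF call was further lost without all ZT24 libraries and with only the NRF libraries fitted, and the rank test did not call it (adjusted p = 0.0815).

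Colec11, the collectin CL-11 that starts the lectin pathway of complement, gave amplitudes of 0.14 ± 0.060 under DRF (limma adjusted p = 0.149) and 0.13 ± 0.055 under NRF (adjusted p = 0.118), with fitted peaks at 19.4 h and 13.1 h. At ZT0 the DRF livers had 84.3, 109, 88.5 and 78.7 scaled counts and the NRF livers 70.9, 54.4, 72.0 and 73.6. The lowest DRF liver was above the highest NRF liver, at a ratio of 1.33, but the difference missed the threshold (0.41 ± 0.15, adjusted p = 0.0657). With length fitted, both rhythms of this short transcript passed, at 0.20 under DRF (adjusted p = 0.0149) and 0.16 under NRF (adjusted p = 0.0337).

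Des, the desmin filament protein of stellate and muscle cells, was rhythmic under NRF, with an amplitude of 0.13 ± 0.043 and a peak at 4.71 ± 1.16 h (limma adjusted p = 0.0395), close to the hour of Ngfr and Pdgfrb. Under DRF its amplitude was 0.07 ± 0.040 (peak at 2.64 h, adjusted p = 0.332), the shared component was called (0.10, adjusted p = 0.0255) and the difference was not (0.04, adjusted p = 0.615). Its group means fell to 1.68 scaled counts at ZT12 under DRF and 1.93 at ZT16 under NRF, from 2.43 at ZT4 and 2.53 at ZT8. The NRF call was lost when any 1 of 11 NRF libraries was left out (adjusted p up to 0.0976, without replicate 1 at ZT16), and the shared component without that same library (adjusted p = 0.0502). The NRF call of Des was also lost with median-of-ratios scaling, with the values as deposited and with only the NRF libraries fitted (limma adjusted p up to 0.166). The rank test did not call it (adjusted p = 0.119). With the values as deposited its shared component was lost too. Rgs5, a regulator of G protein signalling in pericytes, gave amplitudes of 0.13 ± 0.056 under DRF (adjusted p = 0.147) and 0.10 ± 0.053 under NRF (adjusted p = 0.287). Rgs5 ran from 47.5 to 89.0 scaled counts over the DRF livers and from 46.5 to 91.8 over the NRF livers, with medians of 67.7 and 71.1.

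**Figure D2:**
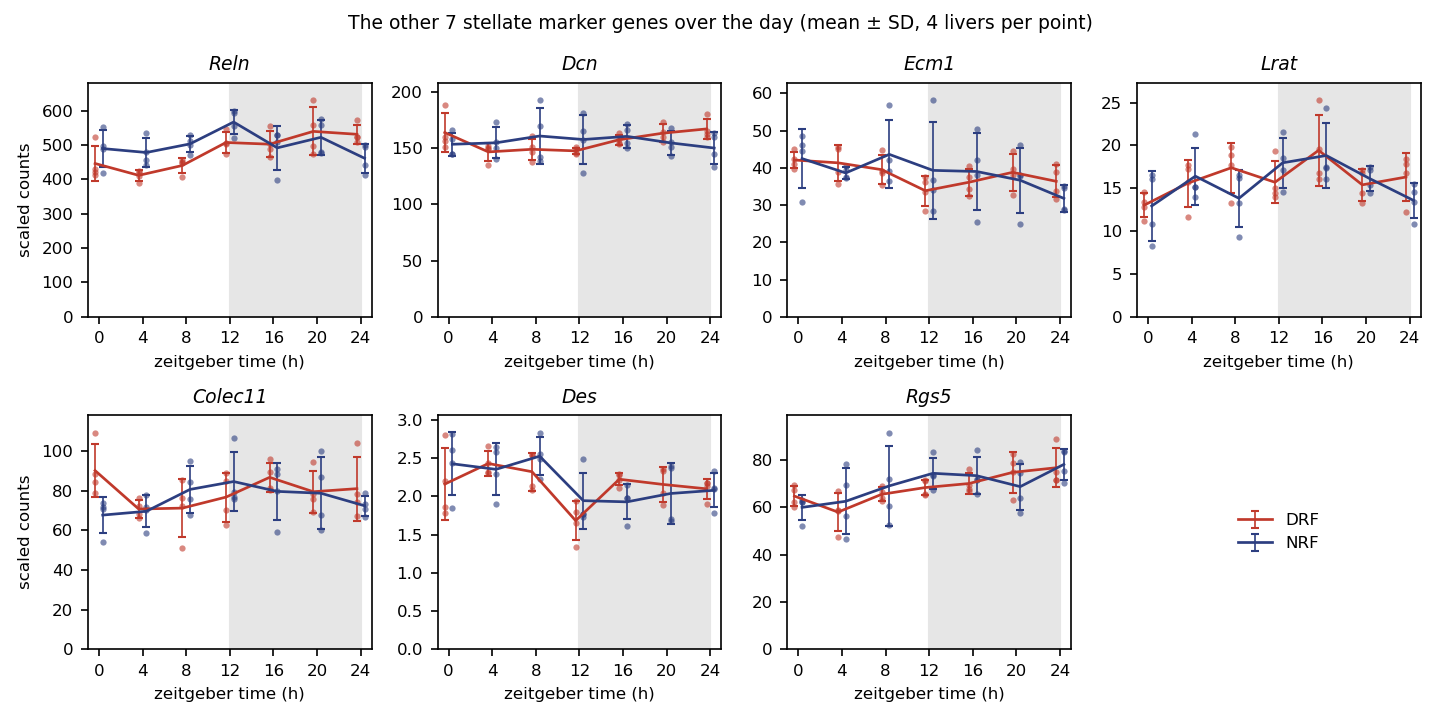
Scaled counts (vertical axes) of the other 7 genes against zeitgeber time in hours under DRF and NRF, with points for single livers, lines for group means, bars for SD over 4 livers and grey for the dark phase. Reln, Dcn, Lrat, Des, Colec11, Ecm1 and Rgs5 overlap between regimens at most times, and Lrat is highest at ZT16 under both.

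At single times, limma called DRF lower than NRF for 1 of the 10 genes at ZT0 (Pdgfrb, against 8.05% of all genes), 1 at ZT4 (Ngfr, against 9.61%) and 2 at ZT8 (Hgf and Ngfr, against 7.29%). It called DRF higher for 1 at ZT12 (Pdgfrb, against 7.07%), 2 at ZT16 (Pdgfrb and Ngfr, against 8.79%), 1 at ZT20 (Hgf, against 7.72%) and 1 at ZT24 (Hgf, against 7.13%). All 9 of these calls fell on Pdgfrb, Hgf and Ngfr. Counting livers that did not overlap, DRF was higher for Hgf and Colec11 at ZT0 (as for 9.76% of genes), Pdgfrb at ZT12 (7.54%), Pdgfrb and Ngfr at ZT16 (9.25%), and Reln and Hgf at ZT24 (8.85%). DRF was lower without overlap for Ngfr at ZT0 (9.78%), for Reln, Hgf and Ngfr at ZT4 (10.6%) and for Reln at ZT8 (9.37%). In a test over the 7 times at once 4 genes differed between regimens, Hgf (adjusted p = 2.03e-06), Ngfr (1.46e-05), Pdgfrb (3.87e-05) and Reln (0.0286), against 42.7% of all genes.

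**Figure D3:**
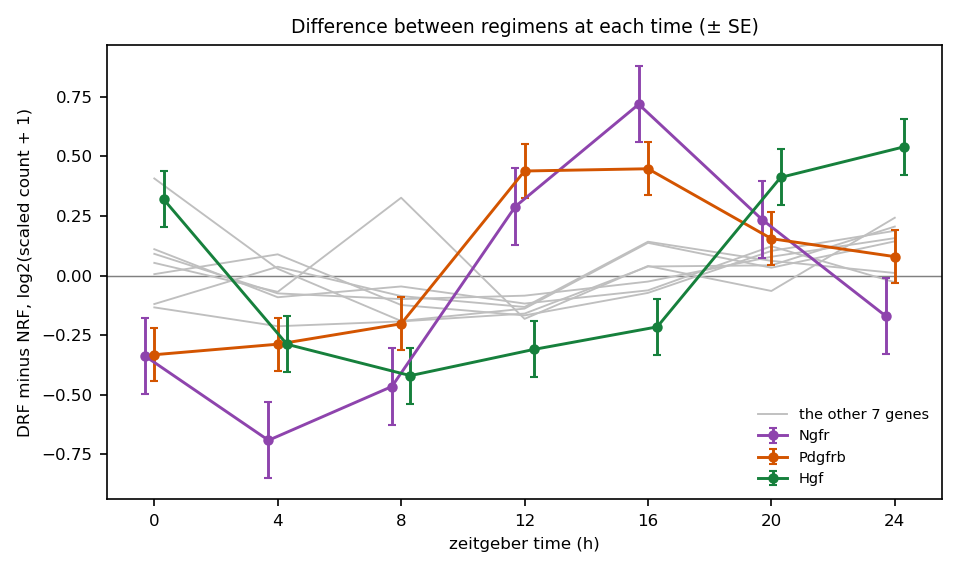
Difference in log2(scaled count + 1), DRF minus NRF (vertical axis), against zeitgeber time in hours, for Ngfr, Pdgfrb and Hgf with SE bars from the limma fit and for the other 7 genes as grey lines without bars. Ngfr moves from -0.69 at ZT4 to 0.72 at ZT16 and Hgf from -0.42 at ZT8 to 0.54 at ZT24.

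No difference in daily mean was called. None of the 10 genes passed limma's test of the mean over the day, none had an unadjusted p under 0.05, and the count was also 0 in each of the 11 other settings and without any 1 library, against 6.85% of all genes called. The 95% intervals of the ratio between the fitted means of log2(scaled count + 1), turned back to a linear scale, lay between 0.899 and 1.14 over the 10 genes. They do not bound the ratio of arithmetic means, which for Ngfr were 5.88 scaled counts under DRF and 6.59 under NRF. The summed level of the 10 genes ran from 761 to 1087 scaled counts over the DRF livers and from 792 to 1063 over the NRF livers.

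**Figure D4:**
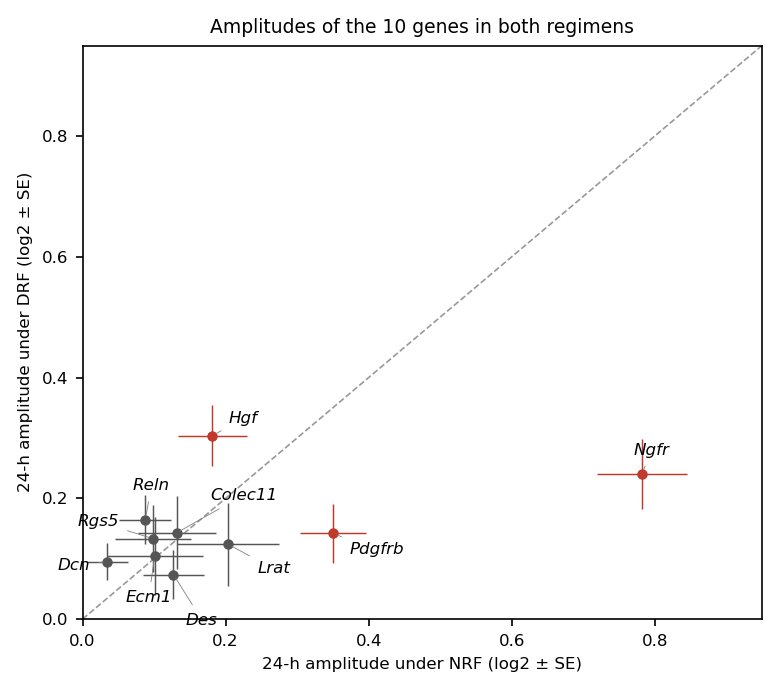
Fitted 24-h amplitude on the log2 scale under NRF (horizontal axis) and DRF (vertical axis) for each of the 10 genes, with SE bars, a line of equal amplitude and red for the 3 genes whose rhythms differed. Ngfr (0.78 against 0.24) and Pdgfrb (0.35 against 0.14) lie below the line, and Hgf (0.18 against 0.30) lies above it.

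Of a second list of 18 stellate cell genes, 14 were rhythmic under DRF, 15 under NRF and 13 had a rhythm that differed (35.1%, 43.8% and 38.9% of all genes), at median amplitudes of 0.18 and 0.20, and the lists were not compared by a test. Cxcl12, the chemokine that binds CXCR4, had its DRF peak at 3.93 h and its NRF peak at 15.5 h (amplitudes 0.19 and 0.34, limma adjusted p of the difference = 1.23e-09). Steap4, a metalloreductase, peaked at 11.4 h and 17.5 h with amplitudes of 0.30 in both. Abcc9, a subunit of potassium channels in pericytes, had peaks at 17.8 h and 12.2 h in the same order (0.20 and 0.10), and Bmp5 was not called in either (0.09 and 0.08). None of the 18 had a different daily mean. The summed level of the list varied 1.17-fold between group means, from 481 to 564 scaled counts.

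Markers of the other cells that whole liver holds were measured beside them. For each count below, 35.1% of all genes were rhythmic under DRF, 43.8% under NRF, and 38.9% differed in rhythm. Of the 11276 genes in the members' range of levels, 6041, 6748 and 6482 were called, in the same order. Of 10 sinusoidal endothelial genes, 8 were rhythmic under DRF, 6 under NRF and 7 differed in rhythm, and their summed level ran from 485 to 650 scaled counts over the DRF livers and 490 to 671 over the NRF livers. Of 10 Kupffer cell genes, 1 was rhythmic under DRF and 3 under NRF, with sums of 660 to 1142 and 636 to 1383. Hepatocyte genes (8 measured) were rhythmic in 5 under each regimen and summed to 109344 to 145968 under DRF and 104223 to 162393 under NRF. Of 5 cholangiocyte genes measured, 4 were rhythmic under DRF and 2 under NRF, with sums of 4.49 to 9.82 and 3.86 to 10.8, and of 6 B and T cell genes 1 and 3 were rhythmic, with sums of 1.06 to 3.54 and 1.301 to 5.60. Of 6 mural genes 1 and 2 were rhythmic, sums ran from 8.27 to 18.3 and 5.54 to 19.8, and Cnn1, Myocd and Actg2 were at 0 in some libraries. The rhythm differed in 1 Kupffer, 3 hepatocyte, 3 cholangiocyte, 1 B and T cell and 2 mural genes.

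The summed level of 9 portal fibroblast and mesothelial genes was lower at ZT16 than at ZT0 under NRF. It stood at 43.4 ± 10.6 scaled counts at ZT0 and 26.1 ± 6.27 at ZT16 under NRF (mean ± SD over 4 livers). Under DRF it stood at 34.5 and 38.01 at those times (group means). The NRF means at ZT0 and ZT16 were the highest and the lowest group mean of this list over both regimens. The NRF livers ran from 36.1 to 58.8 at ZT0 and from 18.0 to 33.1 at ZT16. At ZT24, the same clock time as ZT0, the sum was only 34.1 under NRF, and at ZT4 it was 36.7. Over single livers it ran from 22.7 to 50.5 under DRF and from 18.0 to 58.8 under NRF. None of the 9 markers was at 0 in any library. Of these, 4 were rhythmic under DRF, 2 under NRF and 2 differed in rhythm. Eln, the elastin gene, was rhythmic in both regimens, with an amplitude of 0.73 and a peak at 1.58 h under NRF and 0.32 with a peak at 1.62 h under DRF. Gpm6a, at the highest level of the list, was called under DRF only (0.41, limma adjusted p = 0.0191, against 0.11, adjusted p = 0.706 under NRF), and its difference in rhythm was not called (adjusted p = 0.247). Under NRF the summed levels of the endothelial, Kupffer, cholangiocyte, mural and B and T cell genes were also lower at ZT16 than at ZT0. Those of the hepatocyte genes, the second stellate list and the 10 members were higher at ZT16. A sum is carried by its highest genes, among the members by Reln. The mean of log2(scaled count + 1) over the genes of a list above a low floor fell for both stellate lists. From ZT0 to ZT16 under NRF it went from 5.23 to 5.11 for the members and from 3.79 to 3.70 for the second list. For the hepatocyte genes it rose from 12.16 to 12.31. The part of any of these cell types in the rhythms of Ngfr and Pdgfrb was not tested.

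Genes of the pathways in which the members act were counted in the same fit. The shares of all genes given above apply to these rhythm counts too. A higher daily mean under DRF was called in 1048 of all 25287 genes and a lower one in 683. Among the 11276 genes in the members' range of levels these were 794 and 335. In the PDGF system (5 genes), 3 were rhythmic under DRF, 1 under NRF and 3 differed. The ligand gene Pdgfc had its DRF peak at 13.4 h and its NRF peak at 23.5 h (amplitudes 0.57 and 0.62, limma adjusted p of the difference = 2.03e-18), whereas Pdgfd was called in neither (0.16 and 0.03). Pdgfra, the partner receptor, had an amplitude of 0.32 under DRF and 0.09 under NRF (adjusted p of the difference = 9.54e-07), the reverse of the order in Pdgfrb. In the HGF system (7 genes), 2 were rhythmic under DRF, 5 under NRF and 5 differed. Met, the receptor of Hgf, peaked at 13.6 h under NRF (0.27, adjusted p = 0.00264) and its difference in rhythm was called (adjusted p = 0.00258). Hgfac, the protease that activates the pro-form of Hgf, had a lower daily mean under DRF by 0.12 (adjusted p = 0.0175), and Spint1, an inhibitor of such proteases at only 0.566 scaled counts, a higher one by 0.14 (adjusted p = 0.0409).

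Of 4 reelin pathway genes measured, 1 was rhythmic under each regimen, none differed in rhythm (adjusted p from 0.103 to 0.934) and 2 had a higher daily mean under DRF. The reelin receptor gene Vldlr was higher by 0.68 ± 0.080 (limma adjusted p = 2.02e-08) and the adaptor gene Crkl by 0.14 ± 0.039 (adjusted p = 0.0173). Of 6 neurotrophin genes measured, 1 was rhythmic under DRF and 3 under NRF, and 3 differed. Sort1, sortilin, which pairs with the receptor that Ngfr encodes, had amplitudes of 0.50 under DRF and 0.76 under NRF and a daily mean lower by 0.51 under DRF (adjusted p = 5.45e-05).

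Of 10 retinoid genes measured, 5 were rhythmic under DRF, 7 under NRF and 7 differed, with a higher daily mean under DRF in 3 and a lower one in 1. Stra6l, a receptor for retinol-binding protein, had its DRF peak at 13.7 h and its NRF peak at 23.9 h (0.51 and 0.58, limma adjusted p of the difference = 5.93e-22). Dhrs3, which reduces retinal to retinol, peaked at 15.4 h and 2.65 h (0.38 and 0.46, adjusted p = 2.20e-16), and Rarb, a retinoic acid receptor, at 6.29 h and 17.8 h (0.37 in both, adjusted p = 9.42e-06). Rbp4, the retinol carrier of plasma, had a higher daily mean under DRF by 0.14 (adjusted p = 0.00909).

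Of 6 complement lectin partners of Colec11, 4 were rhythmic under DRF, 3 under NRF and 5 differed, and Mbl2 and Masp1 had lower daily means under DRF, by 0.25 (limma adjusted p = 7.89e-04) and 0.16 (adjusted p = 4.16e-05). Colec10, which joins Colec11 in a heteromer, had an amplitude of 0.28 under DRF and 0.07 under NRF (adjusted p of the difference = 0.00645). Of 6 small leucine-rich proteoglycans related to Dcn, 3 were rhythmic under DRF and 1 under NRF, and 2 differed. Of 9 genes of stellate cell activation, 4 and 3 were rhythmic, 4 differed, none had a different daily mean, and Timp1 was at 0 in some libraries. Col3a1 and Col1a1, the fibrillar collagen genes, had daily mean differences of -0.12 (adjusted p = 0.420) and -0.08 (adjusted p = 0.602).

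Between livers of 1 group, the 10 genes varied together only weakly. After removal of the group means, the 45 pairs had a median Pearson r of 0.21 over the 56 libraries (Spearman's rho 0.18), from -0.23 for Reln and Ecm1 to 0.57 for Pdgfrb and Des and for Pdgfrb and Ngfr. Colec11 and Ngfr followed at 0.56. The same measure between the 10 genes and the other lists had a median of 0.15 for the other stellate genes, 0.20 for endothelial, 0.18 for Kupffer, 0.06 for cholangiocyte, 0.03 for mural, 0.01 for portal fibroblast and -0.04 for hepatocyte genes, against 0.02 over 137480 pairs with all genes of at least 1 scaled count. The points of each correlation share a library, its depth and its length dependence. Replicate 3 of DRF at ZT8, the liver with the low Ngfr, was on average 0.22 below its group on the log2 scale, with 5 of 10 genes at the lowest of the 4. Replicate 2 of NRF at ZT8 was 0.21 above, with 8 genes at the highest.

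**Figure D5:**
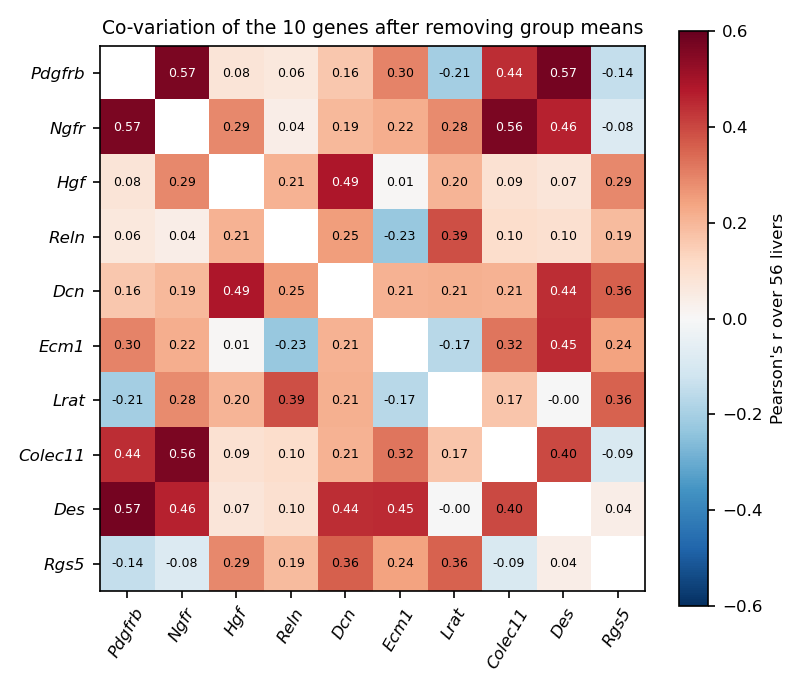
Pearson r between each pair of the 10 genes over 56 libraries after the group means were removed, as a colour and a printed value in a square grid with both axes listing the genes. The pairs of Pdgfrb with Des and with Ngfr are the highest at 0.57, and Reln with Ecm1 is the lowest at -0.23.

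The genes whose values over the 56 libraries were most like each member were named by Pearson's r on the log2 scale among 13748 genes. For Ngfr these were Pxdn (0.86) and Fermt2 (0.81), and for Pdgfrb they were Ngfr itself (0.79) and Heyl (0.78). Pxdn, Fermt2 and Heyl had their NRF peaks at 3.19, 2.93 and 1.28 h, against 3.21 and 2.14 h for Ngfr and Pdgfrb. They were picked by likeness over the same libraries, so near peaks follow from the choice. Under DRF Pxdn was rhythmic (limma adjusted p = 3.46e-04), and Fermt2 (0.952) and Heyl (0.338) were not called. For Reln the most alike genes were Abcc9 (0.81) and Lum (0.77), for Hgf Lztfl1 (0.76) and Gcc2 (0.75), and for Des Cavin1 (0.75) and Hist2h2aa2 (0.74). For Lrat they were Cyp26b1 (0.70), which degrades retinoic acid, and Cd38 (0.57). For Ecm1 they were Nfkbib (0.70) and Plvap (0.69), and for Rgs5 F8 (0.69) and Yes1 (0.67). Dcn (Cdadc1 0.59, Slu7 0.58) and Colec11 (Pam 0.56, Osbpl3 0.54) had no gene above 0.60.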

How the data were processed

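Liver RNA-seq of 56 animals was read from the gene table that the authors deposited, 1 column per library. The submitters' processing notes name CASAVA 1.8 and featureCounts 1.5.0-p3 and the builds mm10 and GRCm38.p6; the aligner and the use of strand are not given in the sources used here. The deposited values are named TPM but are a score that is not linear in counts: multiplied by the GENCODE M21 exon length, they follow, in each library, a curve a ln(1 + f k) with k a whole number. The counts k were recovered through that curve (tolerance 0.05, and 0.2 at high counts). In genes held out of the fit, 98.9% of values up to 10 counts and 96.4% of values up to 1000 counts came out whole, against 10% by chance. Of 25415 genes listed, 25287 were used and 128 left out. Scaled counts f k entered limma 3.58.1 (R 4.3.3, trend) as log2(scaled count + 1). Rhythms were 24-h cosines per regimen, with all 56 libraries sharing 1 estimate of spread, and differences at a time came from group means. The script was tested on simulated data. Tables of transcripts and circular RNAs were not used for results. All 10 members were described. For each, the 2 most alike genes were named, and from each list up to 4 examples were taken from the highest mean levels. Spint1, Timp1, Cnn1, Myocd and Actg2 were named after their values were seen. The members and lists were chosen with earlier results of these data known. Replicate numbers did not mark shared animals (closing section), and each liver was 1 animal.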

Additional observations from a re-analysis of the deposited data

Results flagged for a closer look

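In 14 of 140 groups of 4 livers (10 genes, 14 groups) 1 liver lay far from the other 3 by Dixon's criterion, where chance alone gives about 1 in 20 groups, or 7. Among the receptors, Ngfr stood at 2.38 scaled counts in replicate 3 of DRF at ZT8 (the others 6.57 to 7.00), at 7.51 in replicate 1 of NRF at ZT4 (11.0 to 11.4) and at 6.36 in replicate 3 of NRF at ZT8 (8.09 to 8.26). Hgf stood at 38.6 in replicate 4 of NRF at ZT4 (40.3 to 40.6). Reln stood at 522 in replicate 1 of DRF at ZT0 (413 to 429), at 406 in replicate 4 of DRF at ZT8 (449 to 457) and at 397 in replicate 3 of NRF at ZT16 (510.4 to 530.3). Without the last of these, the NRF rhythm of Reln passed the threshold (amplitude 0.12, limma adjusted p = 0.0151). Lrat stood at 21.4 in replicate 1 of NRF at ZT4 (13.999 to 15.2) and at 24.4 in replicate 1 of NRF at ZT16 (16.04 to 17.5). Des stood at 2.50 in replicate 2 of NRF at ZT12 (1.74 to 1.78), and Dcn at 135 in replicate 3 of DRF at ZT4 (149.8 to 152). Replicate 2 of NRF at ZT0 was low in Colec11, at 54.4 (70.9 to 73.6), and in Rgs5, at 52.3 (62.3 to 63.1), and replicate 2 of NRF at ZT12 was high in Colec11, at 107 (75.9 to 79.4).

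The rhythm differed between the regimens, by a test of the difference itself, in Pdgfrb (opposed component, the difference of the fitted cosines divided by 2, 0.20 on the log2 scale), Hgf (0.24) and Ngfr (0.34).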

How the results depend on the processing

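Leaving out each library in turn gave 3 to 5 rhythmic members under DRF and 3 to 5 under NRF (3 without NRF ZT4 replicate 3, ZT8 replicate 1, 2 or 4, ZT12 replicate 3 or 4, or ZT20 replicate 1 or 3), 3 to 6 with a different rhythm (5 without DRF ZT0 replicate 2, DRF ZT20 replicate 3, NRF ZT0 replicate 1 or NRF ZT4 replicate 4, and 6 without NRF ZT20 replicate 4) and 3 to 6 with a shared component (3 without NRF ZT16 replicate 1). It gave 0 to 3 differing at ZT0, 1 to 3 at ZT4, 0 to 2 at ZT8, 1 to 2 at ZT12, 2 at ZT16, 0 to 1 at ZT20 and 1 at ZT24. Over the 7 times it gave 4 throughout, where median-of-ratios scaling, the values as deposited, the length correction and the fit without the ZT24 libraries gave 3. With the values as deposited, 7 members were rhythmic under DRF, 8 had a shared component, 2 differed at ZT0 and 1 at ZT8. NRF rhythms were 3 when only the libraries of the regimen were fitted and 3 by the rank test. With genes of a mean of at least 1 scaled count, 5 differed in rhythm, 3 at ZT0, 2 at ZT4 and 2 at ZT12. With the length correction 2 differed at ZT0 and 2 at ZT4, with median-of-ratios scaling 2 at ZT4, and with recovered counts divided by the library total 4 at ZT4 while 3 had a shared component. Without the ZT24 libraries 0 differed at ZT0 and 1 at ZT8, and without the ZT0 libraries 1 at ZT8. With only the 8 libraries of a time, 0 differed at ZT8, 0 at ZT12 and 0 at ZT20. No called difference turned its direction, while uncalled daily mean differences near 0 changed sign in some settings (for Ngfr from -0.02 to 0.02 with the values as deposited). The rhythm difference of Ngfr, Pdgfrb and Hgf was called in each setting. The cause of these changes was not tested.

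Replicate numbers did not pair the livers: same-numbered libraries of different groups had a median correlation of 0.00479 (-0.41 to 0.31), with 34 of 364 pairs over 0.1. With the replicate number as a block, 3 members differed at ZT0, 4 in rhythm, and 4 and 5 were rhythmic under DRF and NRF. The sequencing depth behind each value is not known from the recovered counts, so no limit set by depth is given.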
